A study of Canis lupus familiaris with 15 samples.

Results

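The tumors compared here were the 5 canine osteosarcomas with the highest and the 5 with the lowest expression of 3 osteoblast genes, out of 15 tumors in all. Each tumor was given an osteoblast score, the mean log2 signal of IBSP, BGLAP and ALPL on its array, with each gene read from the brightest probeset that carries its symbol alone. The tumors were therefore chosen by measured values of these genes, and the scoring genes are described without a test. All other genes were compared between the groups.

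All 15 tumors were snap frozen primary tumors taken at limb amputation from dogs that had received no chemotherapy by then. After amputation all dogs were treated with doxorubicin, a platinum drug or both. Total RNA of each tumor was hybridised to 1 Affymetrix Canine 2.0 array. The study set a cohort with a disease free interval under 100 days (DFI<100, 8 dogs) against one over 300 days (DFI>300, 7 dogs). The arrays were run in 2 batches. Which array belonged to which batch was not known here, so batch and score group cannot be told apart. Each value comes from 1 dog, and dogs are the replicates throughout.

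The high tumors came, in order of score, from dog 173175 (Rottweiler, 5 years, DFI<100), dog 204714 (Greyhound, 8 years, DFI<100), dog 168327 (Golden Ret., 8 years, DFI>300), dog 212759 (Golden Ret., 10.8 years, DFI<100) and dog 184844 (Greyhound, 4.4 years, DFI<100). The low tumors came from dog 208911 (Doberman, 8 years, DFI<100), dog 208756 (Labrador Ret., 10.2 years, DFI<100), dog 180119 (Mix, 10.4 years, DFI>300), dog 223986 (Greyhound, 7 years, DFI<100) and dog 153599 (Mix, 9 years, DFI<100). Each group thus held 4 tumors of the DFI<100 cohort and 1 of the DFI>300 cohort, whereas all 5 tumors in the middle of the ranking belonged to the DFI>300 cohort. These middle tumors came from 3 dogs labelled Mix, 1 Rottweiler and 1 Greyhound, aged 7.1 to 13.4 years, with 4 osteoblastic tumors and 1 poorly differentiated. The high group held 4 tumors of the osteoblastic subtype and 1 giant cell tumor, and the low group 3 and 2. Castrated males were 3 of 5 dogs in the high group and 1 of 5 in the low group (Fisher's exact test, 2-sided, p = 0.524), and the other dogs were spayed females. Dogs labelled Mix were 0 of 5 and 2 of 5 (Fisher's exact test, 2-sided, p = 0.444). Mean age was 7.24 ± 2.59 years (SD, n = 5) in the high group and 8.92 ± 1.45 years (SD, n = 5) in the low group, and an exact permutation test of this difference gave a 2-sided p of 0.262.

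Osteoblasts are the cells that form bone. They secrete type I collagen, which is modified in the endoplasmic reticulum and trimmed and cross-linked outside the cell, and they then load this matrix with mineral. The transcription factors RUNX2 and SP7 drive this program, and signals through receptors for parathyroid hormone, BMP, FGF and WNT proteins tune it. Osteosarcoma is recognised by tumor cells that lay down osteoid, the unmineralised bone matrix, and tumors differ in how far along this path their cells go.

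ALPL is the tissue-nonspecific alkaline phosphatase, which removes pyrophosphate so that mineral can form. Its log2 signal was 13.12, 12.60, 11.94, 12.15 and 11.38 in the high tumors, in order of score, and 10.82, 9.69, 9.09, 8.48 and 7.82 in the low tumors. IBSP, a bone matrix protein that binds mineral, was at 10.92, 13.56, 12.17, 12.13 and 13.16 in the high tumors and 11.83, 9.44, 11.27, 10.52 and 9.44 in the low tumors. The groups were thus apart for ALPL and overlapped for IBSP. BGLAP, or osteocalcin, a protein of mature osteoblasts, was at 12.42, 8.41, 7.59, 4.91 and 4.63 in the high tumors and 3.03, 4.72, 3.42, 4.77 and 6.31 in the low tumors. It lay above 6.79, the level that control probesets for reporter genes reached on these arrays, in 3 high tumors and in 0 low tumors, while IBSP and ALPL lay above it in all 15. A probeset with a mean at or under that level is called near background below. The first place of dog 173175 rested on BGLAP, as its IBSP was the lowest of the high group, though its ALPL was the highest. With BGLAP left out of the score, the tumor of this dog moved to the middle group.

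Scores averaged 10.74 ± 1.08 (SD, n = 5) in the high group, 9.22 ± 0.36 (SD, n = 5) in the middle group and 8.04 ± 0.29 (SD, n = 5) in the low group. The groups adjoined without a gap. The last high tumor scored 9.72 and the next one down, of dog 193231, scored 9.60, while the last middle tumor, of dog 190030, scored 8.83 and the first low tumor, of dog 208911, 8.56. Leaving any of the 3 genes out of the score, or scaling them to the same SD, kept 4 or 5 of the 5 high tumors and 4 or 5 of the 5 low tumors.

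**Figure D1:**
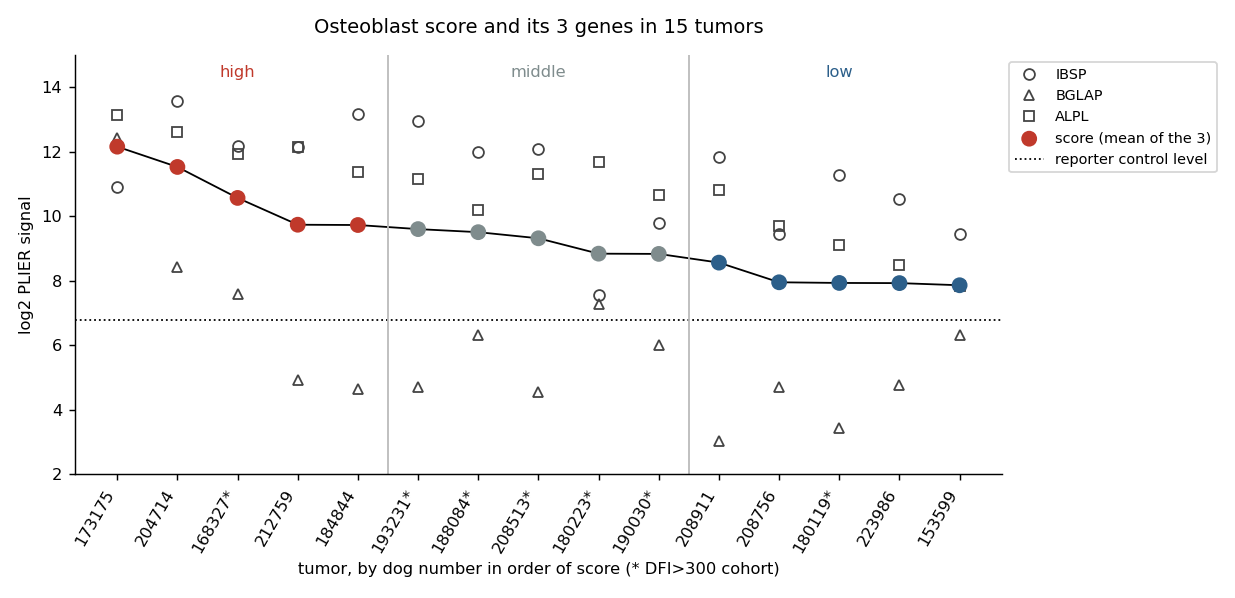
Log2 PLIER signal of IBSP, BGLAP and ALPL (open symbols) and their mean, the score (filled circles), in each of the 15 tumors in order of score. The score ran from 12.15 down to 7.86 with no gap between the groups, and BGLAP was above the dotted reporter control level in 4 tumors.

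Genes that are abundant in bone-forming tissue were bright in every tumor. COL1A1 ranged from 12.76 to 13.35 over the 15 tumors and SPARC from 12.96 to 13.62, both far above the reporter level. No other tissue was compared, so these values cannot show whether the label of the tissue is right. In whole tumor pieces, fewer cells of a type and less RNA per cell cannot be told apart. The difference between high and low arrays in overall brightness was smaller than the spread between dogs, with a median PLIER signal of 51.3 ± 2.89 (SD, n = 5) against 51.4 ± 1.78 (SD, n = 5) (exact permutation test, 2-sided, p = 0.952). The log2 ratio of the 3 prime to the 5 prime control probesets, which rises as RNA degrades, was 2.12 ± 0.41 (SD, n = 5) and 2.08 ± 0.15 (SD, n = 5) (exact permutation test, 2-sided, p = 0.849).

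Beyond the scoring genes, no probeset passed correction over the whole array. Of 42855 probesets tested with limma, 0 (0%) had an adjusted p under 0.05, and the smallest adjusted p was 0.458. An unadjusted p under 0.05 was reached by 2266 probesets, 1151 higher and 1115 lower in the high tumors, where 2143 is the number this threshold lets through if no probeset differs. The methods' t-test gave 2423 at that level and 1 after adjustment, an unnamed probeset far below background. All that follows thus describes differences that did not pass correction. Among 15112 named genes, each read from its brightest probeset, 2.88% were higher and 2.3% lower in the high tumors at an unadjusted p under 0.05. The 5 high tumors lay above all 5 low tumors for 0.629% of genes and below all of them for 0.556%. Of all named genes, 52.8% had a lower and 47.2% a higher mean in the high tumors, the shares to hold beside the counts of each list below. The median difference over all genes was -0.02 on the log2 scale.

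Genes that make and finish type I collagen tended to have higher values in the high tumors. Of 27 measured genes of this list, 22 had a higher mean in the high group, with a median difference of 0.41, and 6 (22.2%) were higher at an unadjusted p under 0.05 in limma against 2.88% of all genes. These were P4HA2, PCOLCE, PLOD1, FKBP10, SERPINH1 and LOXL4, each with an adjusted p of 0.925 or 0.934 in limma. None of the 27 was free of overlap between the groups, where 0.629% of all genes lay higher without overlap.

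P4HA2 encodes a subunit of the prolyl 4-hydroxylase that stabilises the collagen triple helix. Its log2 signal was 9.83, 10.37, 11.46, 11.64 and 10.99 in the high tumors and 9.57, 9.32, 9.40, 10.40 and 9.17 in the low tumors. The difference was 1.29 ± 0.37 (SE), a 2.44-fold higher signal, and all 5 other probesets of the gene had the same sign. PCOLCE, which speeds the removal of the procollagen C-propeptide, was at 12.54, 12.55, 12.33, 11.67 and 11.66 in the high tumors and 10.64, 11.57, 11.33, 11.73 and 10.86 in the low tumors. Only the low tumor of dog 223986 reached into the range of the high tumors for PCOLCE, and the difference was 0.92 ± 0.30 (SE).

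PLOD1, a lysyl hydroxylase that prepares collagen for cross-linking, was at 10.68, 9.43, 10.37, 10.27 and 9.00 in the high tumors and 8.84, 9.60, 8.63, 9.19 and 7.94 in the low tumors, a difference of 1.11 ± 0.41 (SE). FKBP10 and SERPINH1 encode chaperones that bind procollagen in the endoplasmic reticulum. Their differences were 1.20 ± 0.47 (SE) and 0.81 ± 0.34 (SE), and in both the high tumor of dog 173175 was the highest. LOXL4, an oxidase that cross-links collagen, was near background, and its difference of 1.74 ± 0.81 (SE) came with 1 high tumor, of dog 204714, at 8.58 while the other high tumors lay between 4.69 and 5.15. Without the low tumor of dog 153599 the count at an unadjusted p under 0.05 was 3 in place of 6. It was 2 with groups of 7 or with BGLAP or ALPL out of the score, and 1 in osteoblastic tumors only. Without the low tumor of dog 180119 the median difference was 0.24 in place of 0.41.

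PPIC, a cyclophilin of the secretory pathway that isomerises prolines, stood first among all named genes by p. Its log2 signal was 11.80, 12.03, 12.48, 11.85 and 12.03 in the high tumors and 10.70, 11.02, 11.21, 11.18 and 10.71 in the low tumors, so the groups did not overlap. The difference was 1.07 ± 0.18 (SE), a 2.10-fold higher signal, with an adjusted p of 0.458 in limma, and the gene's other probeset differed by 1.43. The 5 middle tumors lay between 10.89 and 11.48, 4 of them in the range of the low tumors.

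The chains of type I collagen were bright in every tumor. COL1A1 was at 13.22, 13.20, 13.18, 12.76 and 13.01 in the high tumors and 12.87, 13.01, 13.10, 13.11 and 12.80 in the low tumors, a difference of 0.10 ± 0.14 (SE). COL1A2 differed by 0.09 ± 0.12 (SE), with the low tumor of dog 208911 at 13.29 and all other tumors of the 2 groups between 13.58 and 13.72. The other probesets of COL1A1 differed by 0.37 and 0.48, and those of COL1A2 by 0.18 to 0.85, so for both genes the brightest probeset showed the smallest difference. In the middle tumors the brightest COL1A2 probeset was at 13.69 with an SD of 0.0079 (n = 5), and whether probesets this bright were saturated was not tested.

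Among other matrix genes, COL13A1, a transmembrane collagen found at cell adhesions, separated the groups. It was at 8.48, 7.81, 7.78, 7.88 and 8.32 in the high tumors and 5.07, 7.36, 6.51, 5.91 and 5.40 in the low tumors, a difference of 2.00 ± 0.58 (SE) with an adjusted p of 0.915 in limma. Its other 2 probesets were near background and differed by -0.38 and 0.68. COL24A1, a fibrillar collagen of developing bone, differed by 1.65 ± 0.60 (SE) and overlapped. In the list of other collagens, 12 of 17 genes were higher, 2 (11.8%) of them at an unadjusted p under 0.05, against 2.88% of all genes.

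TGFBI, a secreted protein that TGF-beta induces and that binds collagens and integrins, was at 10.12, 8.77, 9.36, 9.66 and 9.15 in the high tumors and 7.75, 7.53, 7.91, 8.84 and 8.07 in the low tumors. Its difference was 1.39 ± 0.32 (SE). ASPN, a small leucine-rich proteoglycan that binds collagen, differed by 2.80 ± 1.30 (SE), where the low tumor of dog 180119 stood at 2.78 and the other low tumors between 6.97 and 10.59. DCN, another proteoglycan of this family, differed by 0.83 ± 0.84 (SE) and was lowest in the same dog, at 8.04. The median of the 11 proteoglycans was 0.36 over all dogs and -0.11 without dog 180119. TNC, a matrix glycoprotein of remodelling tissue, differed by 1.60 ± 0.74 (SE), and of 25 stromal and fibroblast genes 16 were higher.

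**Figure D2:**
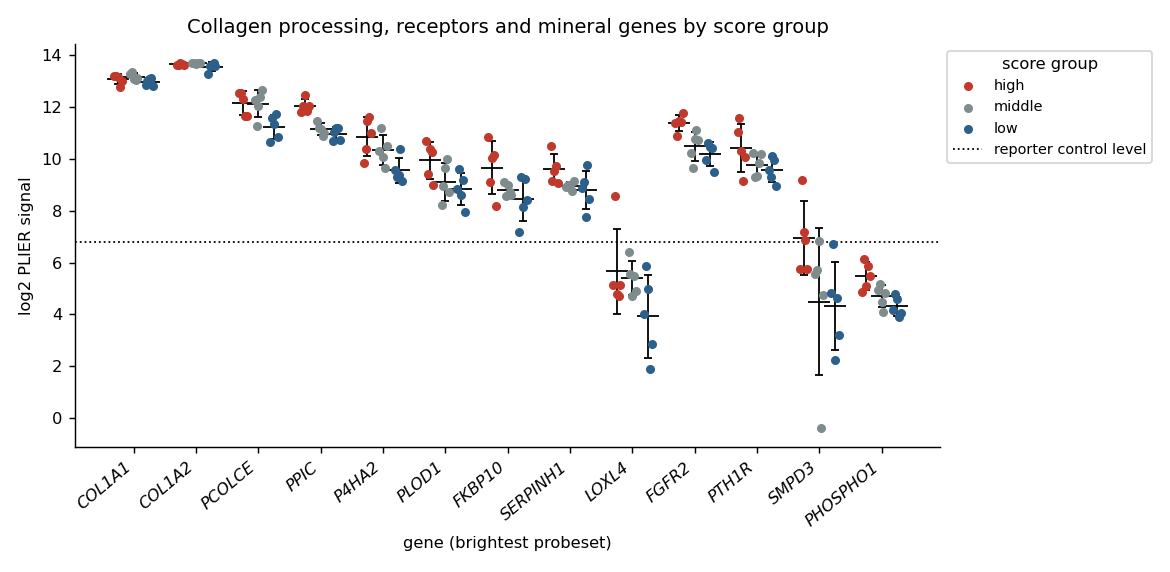
Log2 PLIER signal of 13 genes of collagen processing, bone receptors and mineral formation in the high, middle and low tumors (5 each; points are tumors, bars the mean with its SD, the dotted line the reporter control level). PPIC, FGFR2 and PHOSPHO1 did not overlap between high and low tumors, while the brightest probesets of COL1A1 and COL1A2, shown here, overlapped.

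The mineral genes split. Of 20 measured genes of bone matrix and mineral, 9 were higher and 11 (55%) lower in the high tumors, against 52.8% of all genes lower. Their median difference of -0.01 changed sign when any of 9 dogs was left out. At an unadjusted p under 0.05, 3 (15%) were higher, against 2.88% of all genes. These 3 were PHOSPHO1, PHEX and SMPD3, all of them near background. PHOSPHO1, the phosphatase that supplies phosphate inside matrix vesicles, was at 4.86, 6.16, 5.12, 5.85 and 5.47 in the high tumors and 4.18, 4.80, 4.58, 3.92 and 4.07 in the low tumors. All high tumors were above all low tumors for PHOSPHO1, by a difference of 1.18 ± 0.28 (SE) with an adjusted p of 0.890 in limma.

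SMPD3, a neutral sphingomyelinase needed for mineralisation, was at 5.75, 9.20, 7.20, 6.86 and 5.75 in the high tumors and 4.82, 6.70, 2.23, 4.64 and 3.21 in the low tumors. Its difference was 2.63 ± 1.22 (SE), and 3 of the high tumors lay above every low one. PHEX, an endopeptidase of osteoblasts and osteocytes that acts on phosphate balance, differed by 1.49 ± 0.66 (SE). DMP1, an osteocyte matrix protein, differed by 1.61 ± 0.84 (SE), with an unadjusted p of 0.0750 in limma, and was also near background.

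The most abundant matrix proteins of bone were read from bright probesets. SPP1, or osteopontin, was at 12.67, 13.01, 11.85, 12.13 and 12.34 in the high tumors and 13.10, 10.14, 12.70, 12.84 and 13.23 in the low tumors. The means of SPP1 were equal to within 0.01, since the low tumor of dog 208756 was far under the rest, and without that dog the difference was -0.57. SPARC, or osteonectin, differed by 0.12 ± 0.16 (SE) in its brightest probeset and by 0.42 in its other one. OMD, a keratan sulfate proteoglycan of mineralised bone, was higher by 1.13 ± 0.60 (SE), with 3 high tumors above every low tumor. ENPP1, which makes the pyrophosphate that ALPL removes, was lower by a difference of -1.16 ± 0.90 (SE).

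The transcription factors of the lineage were higher in 12 of 18 measured genes, with a median difference of 0.34. That median was 0.09 without dog 173175 and 0.17 without dog 208911. RUNX2, which commits cells to the lineage, was at 8.94, 7.29, 7.83, 8.83 and 9.77 in the high tumors and 7.53, 7.97, 8.41, 8.91 and 7.81 in the low tumors, a difference of 0.41 ± 0.52 (SE) within the spread between tumors. DLX5 and DLX6, neighbouring homeobox genes that act with RUNX2, differed by 0.70 ± 0.37 (SE) and 0.87 ± 0.54 (SE), and in each 4 of the 5 high tumors were above every low tumor. For DLX6 the remaining high tumor, of dog 204714, was below every low tumor, at 6.98. MSX2, a homeobox gene of osteoblast precursors, differed by 0.96 ± 0.76 (SE). SP7 has no values here because no probeset carries its symbol alone.

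In this list, 1 gene (5.56%) was higher and 1 (5.56%) lower at an unadjusted p under 0.05 in limma, against 2.88% and 2.3% of all genes. TWIST1, a factor that restrains RUNX2, was higher by 1.49 ± 0.54 (SE), near background, with the tumor of dog 173175 at 8.10 and the other high tumors between 4.71 and 6.41. ATF4, a factor that osteoblasts need for late differentiation and that every cell uses in its response to stress, was at 11.15, 11.63, 10.73, 10.32 and 10.98 in the high tumors and 11.95, 11.91, 11.52, 11.39 and 11.41 in the low tumors. Its difference was -0.67 ± 0.24 (SE), and 4 of the 5 high tumors were below every low one.

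In the list of PTH, BMP and WNT signaling in bone, 30 of 41 measured genes were higher in the high tumors, with a median difference of 0.40. The list also holds FGF, IGF and growth hormone genes and inhibitors of these pathways, so the count does not measure pathway activity. Among the inhibitors, SFRP1 differed by 1.70, WIF1 by 1.30 and DKK1 by 0.96, but SFRP4 by -2.26. In limma, 5 of the 41 (12.2%) were higher at an unadjusted p under 0.05 and 0 lower, against 2.88% and 2.3% of all genes. FGFR2, a receptor for fibroblast growth factors whose activating mutations fuse the skull sutures early, was at 11.41, 10.87, 11.47, 11.42 and 11.78 in the high tumors and 9.98, 10.62, 10.47, 10.41 and 9.49 in the low tumors. The groups did not overlap, the difference was 1.20 ± 0.29 (SE), a 2.29-fold higher signal with an adjusted p of 0.890 in limma, and the other 2 probesets differed by 0.87 and 1.59.

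PTH1R, the receptor for parathyroid hormone, was at 11.03, 11.58, 10.33, 9.16 and 10.09 in the high tumors and 9.58, 9.32, 10.13, 9.94 and 8.94 in the low tumors, a difference of 0.85 ± 0.40 (SE). The groups overlapped, with 3 high tumors above every low tumor and that of dog 212759 the second lowest of the 10. BMPR1A, a type I BMP receptor, was higher by 0.63 ± 0.28 (SE), in 4 of the 5 high tumors above every low one, with dog 173175 the exception at 6.99. SMAD9, which carries BMP signals to the nucleus, and LRP5, a WNT co-receptor whose loss thins bone, were near background and differed by 1.05 ± 0.34 (SE) and 0.51 ± 0.22 (SE). The median of this list was 0.18 without dog 173175 and 0.26 without dog 208911.

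Named genes with the smallest p above background and a difference over 1 also included several outside these lists. INPP5A, a phosphatase that ends inositol trisphosphate signals, was at 9.04, 9.83, 9.36, 8.90 and 9.03 in the high tumors and 8.16, 7.26, 8.37, 8.36 and 7.44 in the low tumors. PDCD4, an inhibitor of translation initiation, was at 11.94, 11.21, 10.97, 11.26 and 11.40 against 10.19, 10.96, 9.88, 9.33 and 9.60. For both genes all high tumors were above all low tumors, by 1.31 ± 0.26 (SE) and 1.36 ± 0.30 (SE), with adjusted p of 0.527 and 0.689 in limma. In PDCD4 the last high and the first low value were 10.97 and 10.96.

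GALNT5, an enzyme that starts O-linked glycosylation, had a difference of 2.27 ± 0.57 (SE), and WFDC1, a secreted protein with a whey acidic protein domain, 1.44 ± 0.35 (SE). FXYD1, a regulator of the sodium pump, differed by 1.35 ± 0.35 (SE), and TNS2, an adaptor of focal adhesions, by 1.08 ± 0.27 (SE). These 4 genes did not overlap between the groups. CPE, a carboxypeptidase of the secretory pathway, differed by 1.41 ± 0.37 (SE), with 4 high tumors above every low tumor. The middle tumors of TNS2 averaged 8.19, against 8.12 in the high and 7.04 in the low tumors, whereas those of GALNT5 averaged 8.15, between 8.96 and 6.69.

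Genes of glycolysis and the response to low oxygen had lower values in the high tumors. Cells short of oxygen stabilise HIF1A, which turns on glucose uptake, glycolysis and signals for new vessels. Of 31 measured genes of this list, 27 were lower in the high tumors, with a median difference of -0.41, and 11 (35.5%) were lower at an unadjusted p under 0.05 in limma against 2.3% of all genes. The 11 were PGK1, ADM, ANKRD37, NDRG1, VEGFA, GPI, KDM3A, ALDOC, EGLN3, ENO1 and HIF1A, and their adjusted p ran from 0.689 to 0.934 in limma. For 5 of the 31 the high tumors were all below the low tumors, against 0.556% of all genes. These were PGK1, ADM, ANKRD37, NDRG1 and KDM3A.

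PGK1, which makes the first ATP of glycolysis, was at 11.12, 11.63, 11.39, 11.50 and 11.55 in the high tumors and 12.19, 12.28, 11.89, 12.22 and 12.40 in the low tumors. The difference was -0.76 ± 0.16 (SE), a 1.69-fold lower signal, and the other 2 probesets differed by -0.99 and -0.83. ADM, or adrenomedullin, a peptide that widens vessels, was at 7.24, 8.75, 9.40, 7.80 and 7.46 in the high tumors and 10.33, 10.29, 10.69, 10.97 and 9.96 in the low tumors. This was the widest contrast of the list, at -2.32 ± 0.53 (SE), a 4.99-fold lower signal. ANKRD37, a gene that HIF1A activates, differed by -1.87 ± 0.54 (SE), although 1 of its 2 other probesets, both near background, had a difference of 0.14.

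VEGFA, the main growth factor for blood vessels, was at 10.74, 9.18, 9.66, 9.46 and 10.02 in the high tumors and 10.05, 11.01, 11.51, 12.44 and 10.42 in the low tumors. Its difference was -1.27 ± 0.43 (SE), and only dog 173175 among the high tumors reached into the range of the low ones. The glycolytic enzymes ALDOC, GPI and ENO1 differed by -1.26 ± 0.49 (SE), -0.52 ± 0.20 (SE) and -0.43 ± 0.19 (SE). For GPI the high tumor of dog 173175 was above every low tumor, at 12.14, and the other 4 high tumors were below every low tumor. HIF1A itself was lower by -0.41 ± 0.19 (SE). KDM3A, a histone demethylase that needs oxygen, differed by -0.57 ± 0.22 (SE), and SLC2A1, the glucose transporter of most tumors, by -0.84 ± 0.46 (SE). EGLN3, an oxygen sensor that marks HIF1A for destruction, and NDRG1, a differentiation gene that hypoxia induces, were near background, with differences of -1.13 ± 0.49 (SE) and -1.13 ± 0.33 (SE). Other members of the list differed little, CA9 by -0.03, HK2 by -0.02, TPI1 by -0.04, PDK1 by -0.07, P4HA1 by -0.08 and BNIP3 by -0.19. The 4 higher members were PFKM, by 1.02, ANGPTL4, by 0.34, PKM, by 0.19, and ENO2, by 0.14.

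The count depended on single dogs. It was 7 without the high tumor of dog 184844, 7 without the low tumor of dog 208756 and between 8 and 13 without each of the others. It was also 4 without Greyhounds, 5 with the scoring genes scaled to the same SD, 5 with ALPL out of the score and 6 with the score as a number over all tumors. The list mean over its 31 genes was 9.01, 8.63, 8.93, 8.66 and 8.16 in the high tumors and 8.93, 9.48, 9.18, 9.51 and 8.77 in the low tumors, so that as a whole the groups overlapped. The middle tumors, all of the DFI>300 cohort, averaged 8.52, under the 8.68 of the high tumors and the 9.17 of the low tumors. For 6 of the 11 genes the mean of the middle tumors lay between those of the other groups, for PGK1, ADM, GPI and EGLN3 it was lowest of all, and for KDM3A it was highest. In the collagen list all 6 genes had the middle mean in between.

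**Figure D3:**
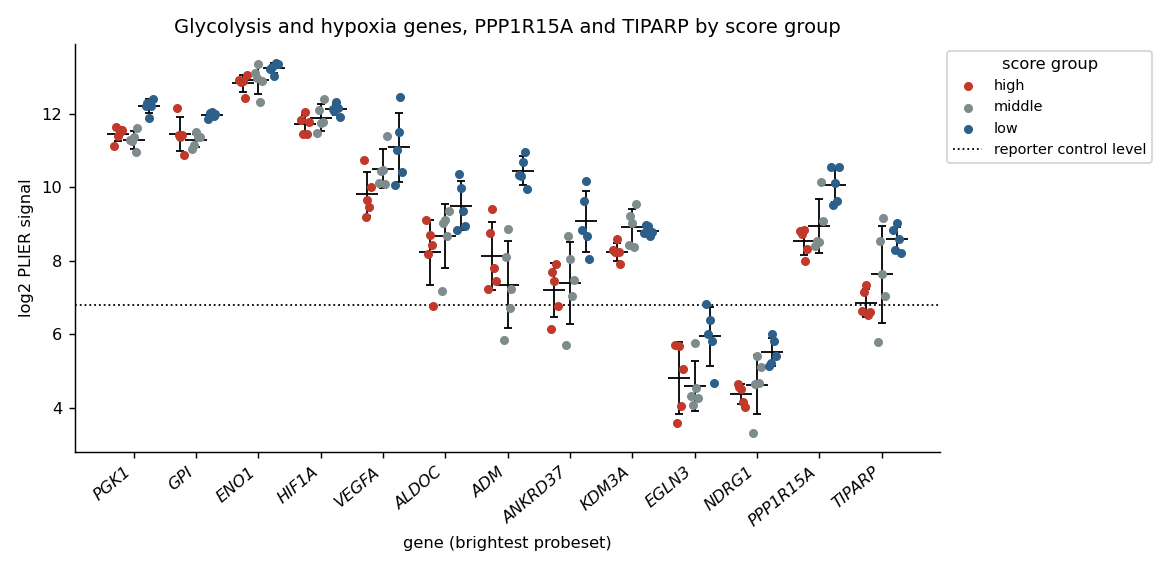
Log2 PLIER signal of 11 genes of glycolysis and hypoxia, and of PPP1R15A and TIPARP, in the high, middle and low tumors (5 each; points are tumors, bars the mean with its SD, the dotted line the reporter control level). The low tumors lay above all high tumors for PGK1, ADM, ANKRD37, KDM3A, NDRG1, PPP1R15A and TIPARP.

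Other genes of the ranking by p had lower values in the high tumors. PPP1R15A, which restarts translation after stress, was at 8.81, 8.72, 8.83, 7.99 and 8.31 in the high tumors and 10.54, 9.53, 10.11, 9.64 and 10.54 in the low tumors. Its groups did not overlap, the difference was -1.54 ± 0.34 (SE), a 2.91-fold lower signal with an adjusted p of 0.707 in limma, and all 4 other probesets were lower too. TIPARP, an ADP-ribosyltransferase induced by the aryl hydrocarbon receptor, was at 6.63, 7.16, 7.35, 6.52 and 6.62 against 8.83, 8.29, 9.02, 8.58 and 8.20, a difference of -1.73 ± 0.49 (SE). Its middle tumors spread from 5.79 to 9.15, across both groups.

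KLF10, a factor that TGF-beta induces early, differed by -1.03 ± 0.33 (SE), and ATF3, a stress-induced partner of AP-1 proteins, by -0.66 ± 0.24 (SE) near background. Of 19 immediate early genes, 14 were lower, with a median difference of -0.31 that was -0.19 without dog 212759. Of the 19, 1 (5.26%) was lower at an unadjusted p under 0.05, against 2.3% of all genes. FOS, a component of AP-1, differed by -1.14 ± 0.81 (SE) and overlapped widely, from 8.13 to 12.34 in the high tumors and from 9.79 to 12.88 in the low tumors.

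Other genes of this ranking had no shared role in the lists. TCIM, a small regulator of WNT targets, differed by -2.22 ± 0.61 (SE), FHL2, a LIM domain co-factor, by -1.59 ± 0.45 (SE) and SMPDL3A, a secreted phosphodiesterase, by -1.32 ± 0.44 (SE), all without overlap. ABCE1, which recycles ribosomes, differed by -1.22 ± 0.40 (SE), and MITD1, which acts in the last cut of cell division, by -1.16 ± 0.29 (SE).

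Markers of other cells were examined because the tumor pieces also hold osteoclasts, macrophages, vessels and cartilage. Osteoclasts, the cells that resorb bone, were lower in the high group for 12 of 14 markers, with a median difference of -0.36 and none at an unadjusted p under 0.05. ACP5, the acid phosphatase of osteoclasts, was at 11.19, 12.77, 11.08, 11.07 and 8.85 in the high tumors and 13.05, 5.28, 12.31, 11.57 and 12.68 in the low tumors. CTSK, their collagen-cleaving protease, was at 12.71, 13.41, 13.14, 12.71 and 11.85 in the high tumors and 13.55, 10.60, 13.38, 13.16 and 13.49 in the low tumors. In both genes the low tumor of dog 208756 was far under every other tumor of the high and low groups.

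The mean of the 14 osteoclast markers ran from 7.35 to 9.32 in the high tumors, and in the low tumors it was 6.56 in dog 208756 and between 8.79 and 9.49 in the rest. The proton pump subunits TCIRG1 and ATP6V1B2, which acidify the resorption pit, differed by -0.74 ± 0.69 (SE) and -0.93 ± 0.56 (SE). Without dog 208756 the median of the list was -0.85, and the differences of ACP5, CTSK and TCIRG1 were -1.41, -0.63 and -1.32. The 2 smallest medians when a dog was left out were -0.15 without dog 184844 and -0.20 without dog 208911. MMP13, a collagenase of both osteoblasts and cartilage, differed by 0.02 ± 0.93 (SE), and MMP2, a gelatinase of stromal cells, by 1.56 ± 0.83 (SE). Whether osteoclast content has a part in the other differences was not tested.

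Macrophage markers were lower in the high tumors for 20 of 22 genes, with a median difference of -0.49 and 0 at an unadjusted p under 0.05. CYBB, a subunit of the phagocyte oxidase, and MRC1, the mannose receptor, differed by -0.81 ± 0.70 (SE) and -0.97 ± 0.73 (SE). The list mean was between 7.61 and 8.23 in the high tumors and was 8.44, 6.80, 10.22, 8.27 and 8.48 in the low tumors. Dog 180119 stood highest and dog 208756 lowest, so that the median was -0.07 without the first and -0.94 without the second.

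Of 10 MHC class II genes, which present antigen, 9 were lower, with a median difference of -0.73 that ran from -0.98 to -0.56 as each dog was left out. DLA-DQA1, 1 of these genes, was at 9.18, 9.01, 9.94, 9.06 and 10.89 in the high tumors and 9.79, 10.49, 11.17, 10.81 and 11.40 in the low tumors, a difference of -1.11 ± 0.59 (SE). DLA-DMA and DLA-DQB1 differed by -0.93 ± 0.52 (SE) and -1.16 ± 0.73 (SE). T and NK cell markers were lower in 15 of 19 genes, but only 2 of the 19 were above background. CCL5, a chemokine of these cells, differed by -1.60 ± 0.99 (SE) and CD3E, part of the T cell receptor complex, by -0.29 ± 0.30 (SE) near background.

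Cartilage genes overlapped widely between the groups. Of 19 cartilage markers, 14 were higher, with a median difference of 0.27 that was -0.05 without dog 204714, and only 4 were above background. COL2A1, the collagen of cartilage, ran from 2.23 to 10.85 in the high tumors and from 1.93 to 10.35 in the low tumors. SOX9, the master factor of cartilage, differed by -0.95 ± 1.12 (SE) near background, and HAPLN1, which links cartilage proteoglycans, by 1.74 ± 1.86 (SE).

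Of 20 endothelial markers 14 were lower, with a median difference of -0.10 that was 0.13 without dog 208911. This median also changed sign in 4 of 19 alternatives. ANGPT2, a vessel-destabilising ligand that hypoxia induces, differed by -1.24 ± 0.56 (SE) near background and FLT1, a VEGF receptor, by -0.98 ± 0.51 (SE). These were among the largest differences of the list. PECAM1 differed by -0.40, VWF by -0.46, CDH5 by -0.08 and CD34 by -0.12, and among the 6 higher markers TIE1 by 0.13 and TEK by 0.23. ATP2A1, a muscle calcium pump, differed by 0.50 ± 0.18 (SE) without overlap, but its other 2 probesets, both near background, differed by -0.07 and -0.01. TNNI2, a troponin of fast muscle, was high in 2 low tumors, at 9.83 and 9.35, and between 5.84 and 6.51 in the high tumors. TNNC2, another troponin of the list, went the other way, higher in the high tumors by 1.15 without overlap but near background. The remaining lists were mixed, where 52.8% of all genes were lower and 47.2% higher. Members were lower in 10 of 14 B and plasma cell, 7 of 10 neutrophil, 6 of 9 erythroid and 9 of 16 smooth muscle markers, and higher in 15 of 22 skeletal muscle markers, 11 of 17 adipocyte markers and 11 of 19 matrix metalloproteinases and their inhibitors.

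Cell cycle genes were higher in 14 and lower in 20 of 34 (58.8%), against 52.8% of all genes lower. None had an unadjusted p under 0.05 in limma. The G1 cyclins CCND1 and CCNE1 differed by 0.77 ± 0.44 (SE) and 0.79 ± 0.46 (SE). Oxidative phosphorylation genes were lower in 33 of 44, with a median difference of -0.14 that was -0.02 without dog 173175. In this list UQCRFS1 and UQCRC1, subunits of complex III, differed by -0.70 ± 0.23 (SE) and -0.56 ± 0.25 (SE), and UQCRQ, a subunit of the same complex, by 0.45 ± 0.20 (SE).

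The secretory pathway, which carries collagen out of the cell, was not higher as a whole. Of its 38 genes, 16 were higher and 22 (57.9%) lower, against 52.8% of all genes lower. At an unadjusted p under 0.05, 1 (2.63%) was higher, against 2.88% of all genes. This was KDELR2, which returns escaped proteins to the endoplasmic reticulum, with a difference of 0.47 ± 0.18 (SE). Interferon response genes were higher in 19 of 25, with a median difference of 0.25 that was 0.04 without dog 184844, and ISG15, an interferon-induced ubiquitin-like protein, spread from 5.41 to 11.05 in the high tumors.

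**Figure D4:**
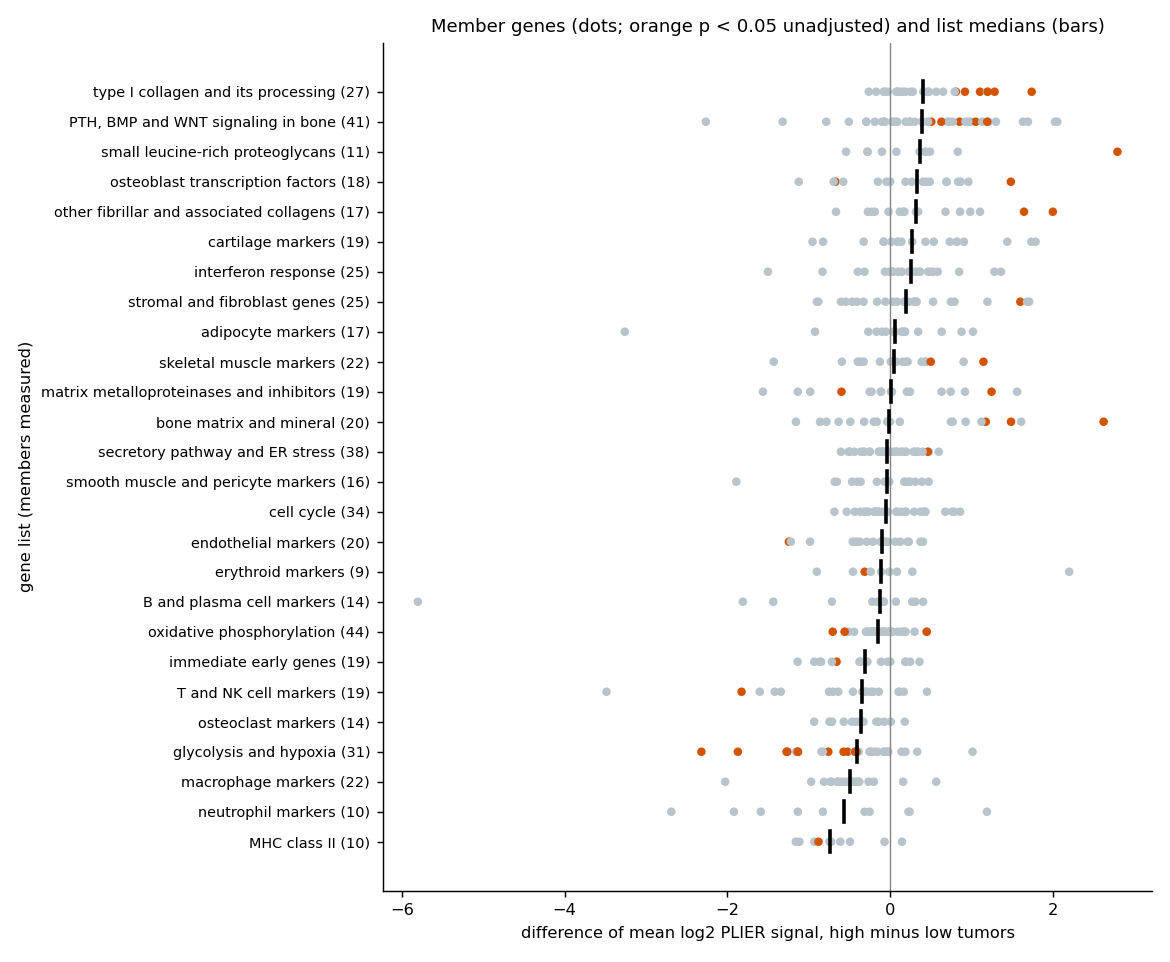
Difference of mean log2 PLIER signal, high minus low tumors, for each measured member (dots, orange where the unadjusted limma p is under 0.05) of 26 gene lists, with the list median as a bar. Glycolysis and hypoxia holds 11 orange dots on the lower side, and type I collagen and its processing 6 on the higher side.

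The contrast within the DFI<100 cohort alone set 4 high against 4 low tumors. There the hypoxia list was lower in 27 of 31 genes, with a median difference of -0.46, and the collagen list higher in 19 of 27, with 0.26. The PTH, BMP and WNT list was higher in 27 of 41, with 0.35, the MHC class II list lower in 9 of 10, with -0.53, and the osteoclast list lower in 12 of 14, with -0.39. The macrophage list was lower in 15 of 22, with -0.09. Some medians changed sign in this cohort. They were -0.22 for small leucine-rich proteoglycans, -0.02 for stromal and fibroblast genes, -0.07 for metalloproteinases and inhibitors and 0.09 for bone matrix and mineral. DCN and HAPLN1 also changed sign, with differences of -0.10 and -0.25. PPIC differed by 1.02, FGFR2 by 1.25, PGK1 by -0.82 and ADM by -2.58 in these 8 tumors. In the DFI>300 cohort the groups held 1 tumor each, which gives no spread. A model with the score, the cohort and their product over all 15 tumors gave 0 probesets with an adjusted p under 0.05 in limma and 1658 at an unadjusted p under 0.05.

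**Figure D5:**
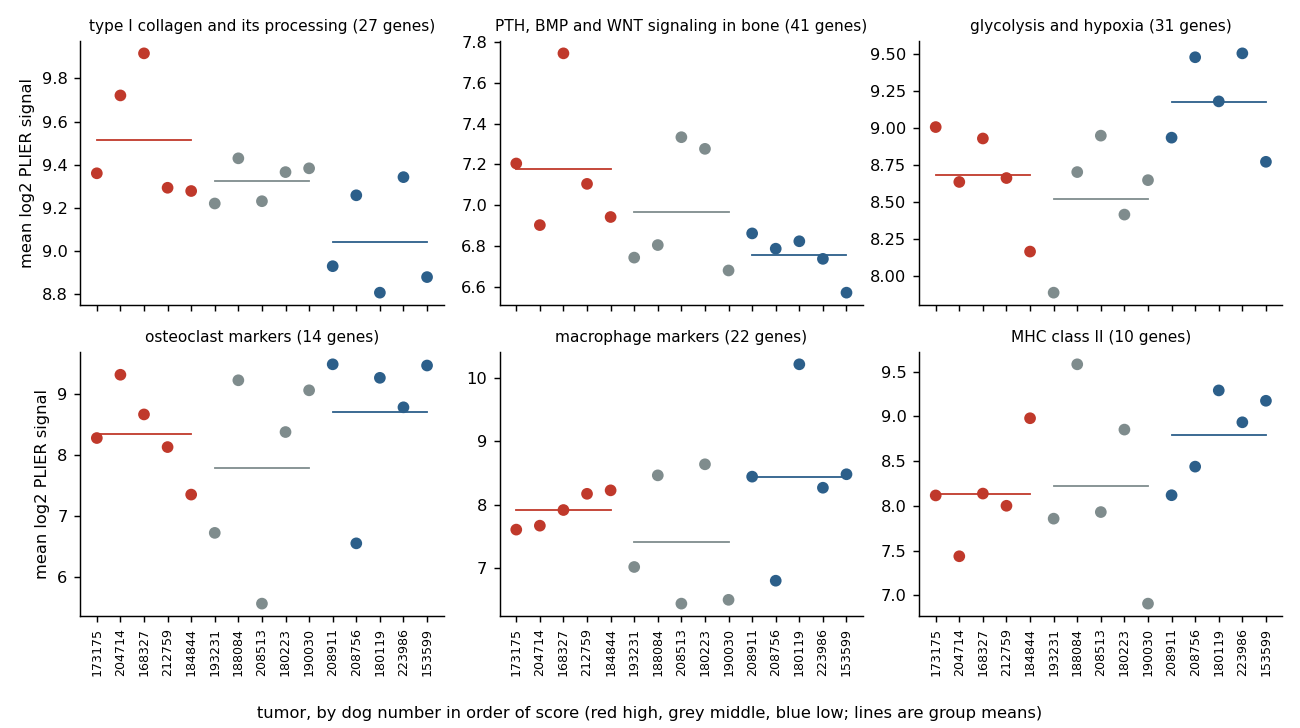
Mean log2 PLIER signal of 6 gene lists in each tumor in order of score (red high, grey middle, blue low, lines the group means; each panel has its own axis). Dog 208756 lies far under the other low tumors for osteoclast and macrophage markers, dog 180119 far above them for macrophage markers, and dog 168327 is highest for the collagen list and for the PTH, BMP and WNT list.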

How the data were processed

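Affymetrix Canine 2.0 arrays measured total RNA of 15 canine osteosarcomas, with an array for each dog. The authors deposited linear intensities, which they had summarised to a PLIER signal for every probeset in Affymetrix Expression Console (no version stated). How the arrays were normalized before that step is not given in the sources used here. Arrays have no depth, and the number of dogs limits the precision. Replicates are dogs, 1 sample each, so p-values measure the spread between these dogs. Subtype and sex were taken by dog number from the study's table of dogs.

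Values were turned to log2 without an offset. Among 43035 probesets, 175 controls and the 5 probesets of the scoring genes were left out, and 42855 were tested. Gene names came from the platform annotation, in which 29249 of the tested probesets carry 1 symbol, 439 several and 13167 none. The reporter level was the 95th percentile of 64 reporter controls, a log2 value of 6.79. The high, middle and low groups were fitted over all 15 arrays with limma 3.58.1 in R 4.3.3, which gave the difference high minus low with its standard error and a p adjusted by Benjamini-Hochberg over all probesets tested. The methods' t-test was run beside it on the 10 arrays compared. Age and array quality were compared by exact permutation tests and counts by Fisher's exact test, in Python 3.11.15 with scipy 1.17.1. The steps were tested on simulated data.

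The members, the 26 gene lists and the tests were chosen with earlier results of these data known. Genes were named where they were among the 10 higher and 10 lower genes with the smallest p, a mean above the reporter level and a difference over 1, belonged to the lists of transcription factors or of bone matrix and mineral, were the 3 members with the smallest p of another list among its members above the reporter level, or were COL1A1, COL1A2, MMP13, PTH1R, ACP5, CTSK, COL2A1 or SOX9. Not every such gene is described. FKBP10, SERPINH1, LOXL4, SMAD9, LRP5, VEGFA, NDRG1, GPI, KDM3A, ALDOC, EGLN3, ENO1, HIF1A, SLC2A1, CD3E, ANGPT2 and ATF3 were named after their values were seen. The alternatives were other scores, groups, covariates, samples and fits, quantile normalization, an offset of 16, a filter at the reporter level, a mean over a gene's probesets and each dog left out in turn. Sequences and promoter motifs were not used here.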

Additional observations from a re-analysis of the deposited data

Results flagged for a closer look

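Among 246 groups of 5 tumors examined for a value that stands apart, 11 held one, where chance gives about 1 in 20. In the low group, 5 of these values came from dog 208756. They were ACP5 at 5.28, with the other low tumors between 11.57 and 13.05, CTSK at 10.60 (13.16 to 13.55), ATP6V1B2 at 9.53 (11.37 to 11.92), TCIRG1 at 8.65 (10.99 to 11.83) and SPP1 at 10.14 (12.70 to 13.23). The mean of the 14 osteoclast markers in the same tumor, 6.56 against 8.79 to 9.49, was the sixth. These markers share the tumor and are not independent of each other.

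Dog 208911 stood apart in the low group by its score of 8.56, with the rest between 7.86 and 7.95, and by UQCRFS1 at 12.38 (11.36 to 11.59). In the high group, LOXL4 was 8.58 in dog 204714 (4.69 to 5.15 in the rest), BMPR1A was 6.99 in dog 173175 (7.74 to 8.01), and the mean of the skeletal muscle markers was 5.41 in dog 212759 (4.91 to 5.04). For the genes named in the report, the smallest adjusted p of a difference between the cohorts in the relation to the score was 1 in limma.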

How the results depend on the processing

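No paired analysis was possible because each dog gave 1 tumor and the replicate numbers, given in accession order, pair no dogs. The number of probesets with an adjusted p under 0.05 was 0, and 1 with the methods' t-test, with limma on the 10 arrays compared, without Greyhounds or without dog 208513 (0 to 1 over the dogs left out). At an unadjusted p under 0.05 the higher and lower probesets, 1151 and 1115, were 427 and 404 above the reporter level, the lower ones 737 in osteoblastic tumors only, and 940 to 1277 and 891 to 1448 over the dogs left out. The 11 hypoxia genes were 6 with the score as a number, 5 with scaled scoring genes, 5 with ALPL out of the score, 7 in osteoblastic tumors, 4 without Greyhounds and 7 to 13 over the dogs left out. The 6 collagen genes were 3 with the methods' t-test, 3 with limma on 10 arrays, 2 with groups of 7, 3 with scaled scoring genes, 2 with BGLAP out of the score, 2 with ALPL out, 1 in osteoblastic tumors and 3 to 7 over the dogs left out. The difference in median signal, -0.12, was 0.28 with groups of 7. The cause was not tested in any of these.

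Of 90 genes named, 82 kept their sign with each of 15 dogs left out and under every alternative that gave them a value. That was 19 alternatives, or 18 for genes near background. No adjusted p of the 90 was under 0.223. Leaving out any of the 5 middle tumors cannot change a difference of high minus low. Nor can the t-test, limma on the high and low arrays alone, the filter at the reporter level or the trend and robust fit. Many of the 90 were also named for a small p in these data. The count of 82 was thus in part fixed in advance. Reversed differences were COL1A1 -0.029 and SPARC -0.065 in osteoblastic tumors and RUNX2 -0.15 with IBSP out. SPP1 was 0.16 with the score as a number, 0.33 with scaled scoring genes, 0.57 with ALPL out and 0.36 in osteoblastic tumors (-0.57 to 0.21 over the dogs left out). ACP5 was -0.74 with groups of 7, -0.62 with BGLAP out, -0.076 with the offset, -0.32 with array weights and -0.11 over all its probesets (-1.41 to 0.55). CTSK was 0.072 with the score as a number, 0.044 with scaled scoring genes, 0.16 with IBSP out, 0.15 with ALPL out, 0.25 with age, 0.22 in osteoblastic tumors and 0.10 without Greyhounds (-0.63 to 0.16). COL2A1 was -0.42 with IBSP out, -0.27 with age, -0.90 in osteoblastic tumors and -0.41 without Greyhounds (-0.13 to 2.05). MMP13 was -0.016 with the score as a number, -0.41 with groups of 7, -0.51 with IBSP out, -0.57 with BGLAP out, -0.20 with array weights, -0.30 with age and -0.14 over all its probesets (-0.50 to 0.29).

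Of 26 list medians, 11 kept their sign under all alternatives and dogs left out. These were the transcription factors, type I collagen, PTH, BMP and WNT, macrophage, MHC class II, T and NK, B and plasma, neutrophil, hypoxia, oxidative phosphorylation and immediate early lists. Leaving out a middle tumor could not move any list median. Neither could the t-test, limma on the high and low arrays alone or the trend and robust fit. Genes near background are measured least surely. With 5 tumors a group and groups cut from a continuous score, a difference that missed the threshold is not shown to be absent.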
